A study of Homo sapiens with 6 samples.

Results

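Imprinted genes are transcribed mainly from the chromosome inherited from 1 parent. The 10 described here are H19, IGF2, CDKN1C, KCNQ1OT1, MEG3, DLK1, PEG3, PEG10, MEST and SNRPN. They are 10 of the 58174 genes in the expression table, and they were chosen by name with their measured levels in both groups already known. Their values are therefore given as a description and no test was run on them.

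AGS is an epithelial cell line from a human gastric adenocarcinoma. Total RNA was sequenced from 3 libraries of control cells, which received a nontargeting siRNA (si-NC), and from 3 libraries of cells that received one against FTO (si-FTO), an enzyme that removes methyl groups from adenosines in RNA. The libraries were grouped by their titles. A genotype label also calls the control libraries wild type and the others FTO-/-. The titles and the methods describe siRNA treatment, and these values cannot tell which holds.

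Expression was deposited as TPM, the share of all transcripts that a gene makes up, scaled to a fixed total, with 1 mean per group. The spread between the 3 libraries of a group is therefore not known here, nor whether they came from separate cultures. TPM keeps no record of read number, so the depth is unknown. All genes summed to 999970 TPM for si-NC and 999957 for si-FTO. A gene at the table's lowest value is described as listed at 0. FTO itself had 33.1 TPM in si-NC against 7.27 TPM in si-FTO (log2 ratio -2.05). Log2 ratios are of si-FTO over si-NC after adding 1 TPM to each mean, which understates the difference of genes with low levels.

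Imprinting rests on DNA methylation that is set in the egg or the sperm and kept through later cell divisions at imprinting control regions. On chromosome 11, the methylated paternal copy of the control region next to H19 does not bind CTCF, and IGF2 is transcribed from that chromosome. The unmethylated maternal copy binds CTCF, and H19 is transcribed instead. Imprinted genes are best known for their effects on fetal and placental growth, and loss of imprinting at IGF2 and H19 has been described in many tumours. TPM adds up the transcripts of both parental copies, so these values hold no measure of imprinting itself.

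H19 had the highest level of the 10 in si-FTO and was far lower in si-NC. Its 2 group means were 1.34 TPM in si-NC against 7791 TPM in si-FTO, a 5794-fold difference and a log2 ratio of 11.70. In si-FTO it ranked 7 among all genes and made up 0.779% of all TPM, whereas in si-NC it ranked 15552. IGF2, its partner across the control region, had 0.469 TPM in si-NC against 0.0339 TPM in si-FTO. The pair therefore did not share a level: H19 was abundant in si-FTO, while IGF2 stayed under 0.5 TPM in both groups. In bulk RNA, fewer cells expressing a gene and less RNA per cell cannot be told apart.

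H19 (ENSG00000130600), a noncoding RNA, is annotated on the minus strand of GRCh37 at chr11:2016396-2025782. This span of 9387 bases covers the annotated H19 transcripts together, so a site inside it can lie upstream of a shorter transcript. It holds 8 matches to GGCGGCAG, letters found in the core of the CTCF binding sequence, or to its other strand CTGCCGCC. They are shown because CTCF binding at this locus is what the textbook account of H19 turns on. Each is given with 11 bases on either side, read along the strand of H19, with the match in capitals.

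chr11:2020264-2020293: aatggccgagaGGCGGCAGtggtgactcac
chr11:2021187-2021216: agtggccgcgcGGCGGCAGtgcaggctcac
chr11:2021593-2021622: ggtggctgcgcGGCGGCAGtgcaggctcac
chr11:2021999-2022028: agtggccgcgtGGCGGCAGtgcaggctcac
chr11:2023432-2023461: agtggccgcgcGGCGGCAGtgcaggctcac
chr11:2023833-2023862: agtggccgcgcGGCGGCAGtgcaggctccc
chr11:2024238-2024267: agtggccgcgcGGCGGCAGtgcaggctcac
chr11:2025686-2025715: acaggttctccCTGCCGCCggtctggacag

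Of these, 7 lie on the strand of H19 and share most of the bases around the match. Among 13961 windows of the same length along chromosome 11, 11.7% held at least 1 match, and the mean was 0.138 matches per window. A single window held 8 matches, and it overlaps H19. The next windows held 4. The letters were chosen with the repeats of this locus in mind, so the place of its window follows from that choice and is no test. The same letters occur in 4.89% of 35116 RefSeq promoters of 300 bases. A match is a run of letters in the reference. Neither CTCF binding nor DNA methylation was measured in these libraries.

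H19 is also the host of a microRNA, whose gene MIR675 had no row in the table. The hairpin lies on the minus strand at chr11:2017989-2018061 and is inside an exon of 13 of the 31 annotated H19 transcripts. The mature sequences from RefSeq are given with the seed, bases 2 to 8, in capitals, and the 2 arms have different seeds. Their levels were not measured in these libraries.

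hsa-miR-675-5p: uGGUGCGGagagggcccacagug
hsa-miR-675-3p: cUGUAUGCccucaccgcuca

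Genes were compared where the mean was at least 0.5 TPM in at least 1 group, and a gene was called higher or lower when its log2 ratio was at least 1 in size, which is 2-fold. Of the 10 members, 5 passed this filter, and those 5 were higher in si-FTO and 0 were lower. Over all 20493 genes compared, 11.4% were called higher and 17.0% lower. The members' count supports nothing by itself, since PEG10, MEST and SNRPN were under 0.5 TPM in si-NC and passed only through si-FTO, so they had to differ. H19 and CDKN1C were the 2 members over 0.5 TPM in both groups. The other 5 members, IGF2, KCNQ1OT1, MEG3, DLK1 and PEG3, were under the filter in both. Nearest to the filter were IGF2 below it, at 0.469 TPM in its higher group, and CDKN1C above it, at 22.9 TPM.

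**Figure D1:**
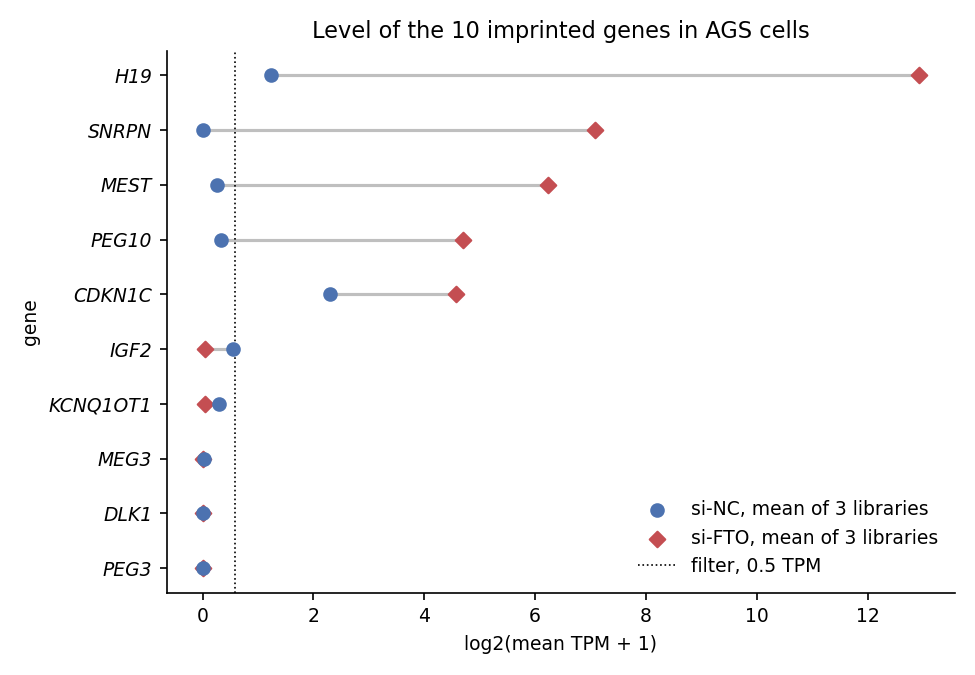
Mean TPM of the 10 members in si-NC (circles) and si-FTO (diamonds), as log2(mean TPM + 1), 1 gene per line. Each symbol is a deposited mean of 3 libraries without an error, and the dotted line marks 0.5 TPM. The 5 upper genes lie to the right of the line in si-FTO, and the 5 lower genes lie to its left in both groups.

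In si-NC the levels ran from CDKN1C at 3.89 TPM and H19 at 1.34 TPM down to DLK1 and SNRPN, both listed at 0. In si-FTO the order was H19, SNRPN, MEST, PEG10 and CDKN1C, followed by the 5 members under the filter. Without the spread between libraries, neighbours in these orders cannot be said to differ. The 10 members together summed to 6.41 TPM in si-NC against 8047 TPM in si-FTO, and H19 made up most of the latter. By the parent whose copy is known to be expressed, 2 of the 3 maternally expressed members (H19 and CDKN1C, but not MEG3) were called higher, as were 3 of the 7 paternally expressed members, against 11.4% of all genes compared. Those 3, PEG10, MEST and SNRPN, are the members that passed the filter only through si-FTO, so nothing is read from this split.

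**Figure D2:**
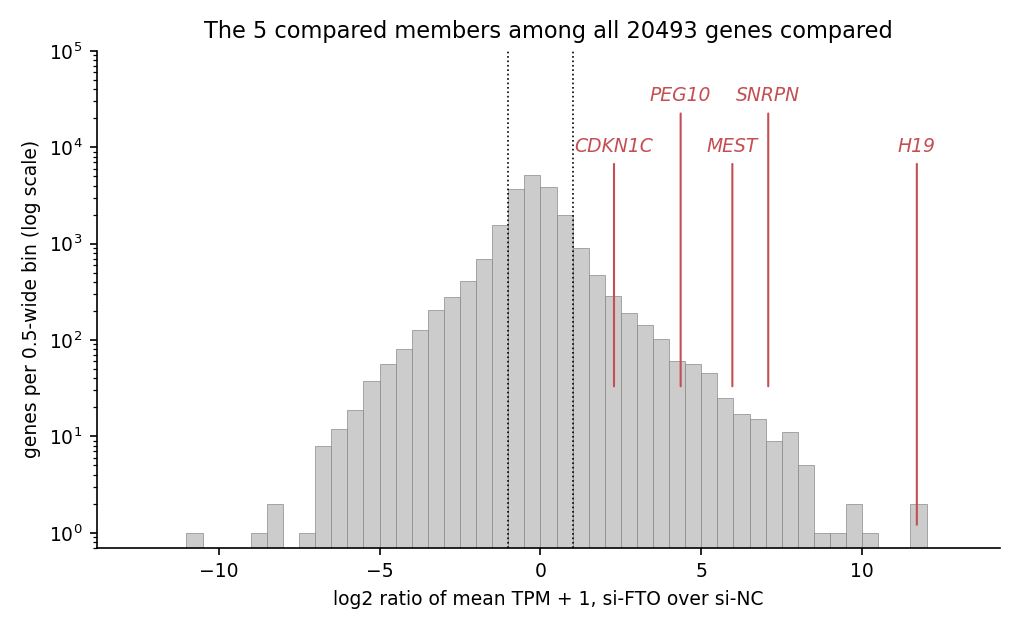
Number of genes in each 0.5-wide bin of the log2 ratio, si-FTO over si-NC, on a log scale, over all 20493 genes compared. Red lines mark the 5 members that passed the filter, and dotted lines mark a log2 ratio of 1 in either direction. The members lie between 2.29 for CDKN1C and 11.70 for H19.

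CDKN1C encodes p57, an inhibitor of cyclin-dependent kinases that restrains the cell cycle. It lies on the minus strand at chr11:2904443-2907005, in the domain next to that of H19. Its mean was 3.89 TPM in si-NC against 22.9 TPM in si-FTO, a 5.87-fold difference and a log2 ratio of 2.29. The log2 ratio was larger in 793 of the genes compared, so CDKN1C was far less extreme than H19. KCNQ1OT1 is the long noncoding RNA of this domain, transcribed from the paternal copy, where it silences its neighbours in cis. It spans chr11:2618538-2721233 within KCNQ1 on the opposite strand, and had 0.228 TPM in si-NC against 0.0266 TPM in si-FTO. The library kit was stranded, but whether strand was used in counting is not given in the sources used here, so reads of KCNQ1 and KCNQ1OT1 may not have been kept apart.

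Several other genes of that domain, normally expressed from the maternal copy, were higher in si-FTO together with CDKN1C. KCNQ1, a potassium channel subunit, had 1.12 TPM in si-NC against 44.4 TPM in si-FTO (log2 ratio 4.42). PHLDA2, a growth-restraining gene of the placenta, had 13.7 TPM and 82.8 TPM, a log2 ratio of 2.51. SLC22A18, a membrane transporter, had 6.40 TPM and 30.1 TPM, a log2 ratio of 2.07. OSBPL5, a lipid-binding protein gene, had a log2 ratio of 1.65, from 12.5 TPM to 41.5 TPM. Below the threshold were NAP1L4, a histone chaperone, with 180 TPM and 234 TPM (log2 ratio 0.38), and SLC22A18AS. The latter had 0.0834 TPM and 0.582 TPM, a 6.98-fold difference whose log2 ratio is held to 0.55 by the 1 TPM added. KCNQ1DN and ASCL2 were listed at 0 in both groups. In all, 5 of the 7 genes of the domain that passed the filter, CDKN1C included, were called higher and 0 lower, against 11.4% and 17.0% of all genes.

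The genes flanking H19 did not share its size of difference. Of the 3 nearest expressed protein-coding genes on the side of smaller coordinates, MRPL23, a mitochondrial ribosomal protein gene, had 172 TPM in si-NC against 89.0 TPM in si-FTO (log2 ratio -0.94). CTSD, a lysosomal protease, had 103 TPM and 298 TPM, a log2 ratio of 1.53. ENSG00000250644, which has no symbol, had 6.85 TPM and 29.5 TPM, a log2 ratio of 1.96. On the other side the nearest were CD81, a tetraspanin (log2 ratio -0.75), TSSC4 (-0.31) and KCNQ1, and the same 6 genes flank IGF2. MRPL23-AS1 and LINC01219, noncoding genes chosen after their values were seen, have midpoints at -13.2 kb and -7.48 kb from that of H19 and had log2 ratios of 2.50 and 2.72. INS, IGF2-AS and INS-IGF2, which lie beside or over IGF2, were listed at 0 in both groups. Within 1 Mb of H19 and IGF2, 10 of 30 other genes compared were called higher and 2 lower, against 11.4% and 17.0% of all genes. Their median log2 ratio was 0.39 against -0.20 over all genes. The same count around CDKN1C and KCNQ1OT1 was 9 higher and 3 lower of 35, and the 2 stretches overlap. Those called higher around H19 and IGF2 include KCNQ1, PHLDA2, SLC22A18 and OSBPL5, already counted with the domain of CDKN1C. They also include LINC02688, MUC5B and LINC01219, which were under 0.5 TPM in si-NC and passed only through si-FTO.

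**Figure D3:**
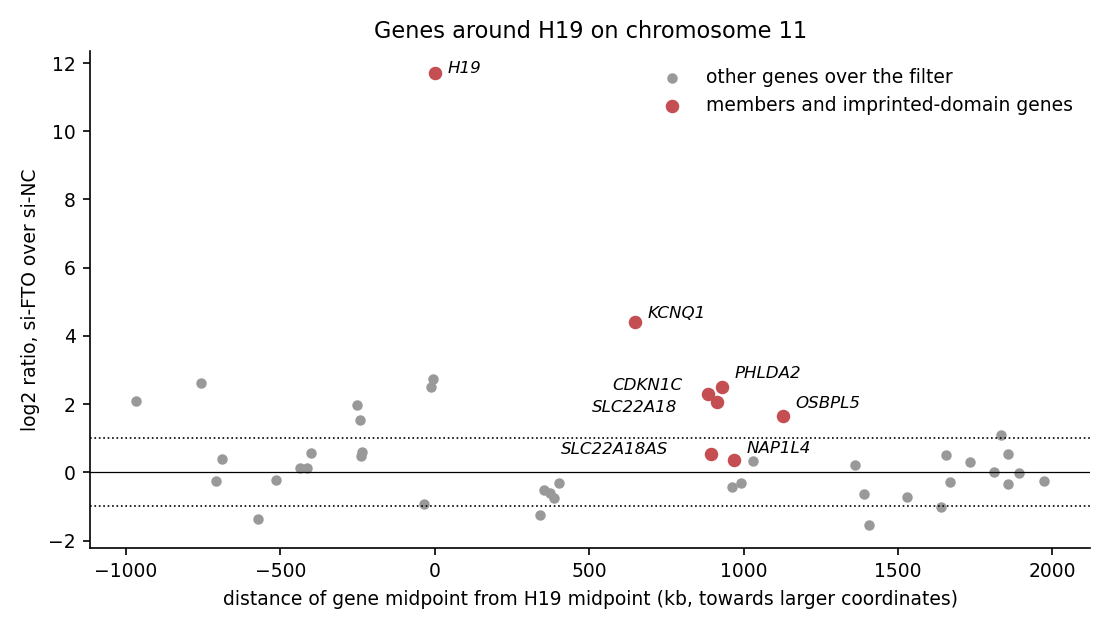
Log2 ratio, si-FTO over si-NC, of each compared gene on chromosome 11 from 1 Mb below to 2 Mb above the start of H19, against the distance in kb of its midpoint from that of H19. Red points are H19, CDKN1C and the other imprinted-domain genes, grey points are other genes, and dotted lines mark a log2 ratio of 1 in either direction. H19 stands at 11.70, and KCNQ1, the next highest point in this stretch, at 4.42.

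SNRPN had the next highest level after H19 in si-FTO. It encodes SmN, a core protein of the spliceosome most abundant in brain, and its locus at chr15:25068784-25223870 is silenced or deleted on the paternal chromosome in Prader-Willi syndrome. SNRPN was listed at 0 in si-NC and had 134 TPM in si-FTO (log2 ratio 7.08). No fold is given against a group at 0. SNRPB, its near-identical paralog, was chosen after its values were seen, since reads of the pair could be shared, and had 657 TPM in si-NC against 600.2 TPM in si-FTO. SNURF, whose transcript overlaps that of SNRPN, was listed at 0 in si-NC and had 21.3 TPM in si-FTO, and the split between them is uncertain.

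Other paternally expressed genes of the chromosome 15 domain went both with and without SNRPN. SNHG14, the long noncoding RNA that hosts small nucleolar RNAs and overlaps SNRPN, had 0.164 TPM in si-NC against 27.9 TPM in si-FTO (log2 ratio 4.63). MKRN3, a zinc finger gene whose loss causes early puberty, had 0.900 TPM and 9.76 TPM, a log2 ratio of 2.50. NDN, NPAP1 and PWRN1 were listed at 0 in both groups, and MAGEL2 had 0.0583 TPM in si-NC and was listed at 0 in si-FTO. UBE3A, a ubiquitin ligase expressed from the maternal copy in neurons, had 25.9 TPM and 31.9 TPM, a log2 ratio of 0.29, and ATP10A was listed at 0 in both. Together 4 of the 5 genes of the domain that passed the filter were called higher, against 11.4% of all genes, but SNRPN, SNURF and SNHG14 passed only through si-FTO. Within 1 Mb of SNRPN, 9 of 20 other genes compared were called higher and 0 lower, against 11.4% and 17.0% of all genes. Those called higher include SNURF and SNHG14, already counted with the domain, so the 2 counts are not separate.

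The start of SNRPN used by its canonical transcript lies in the imprinting control region of this domain. Its promoter, from 250 bases before to 50 after the start, is shown with that of MEST because both genes were listed at 0 or near it in si-NC and abundant in si-FTO. The sequences come from the RefSeq table of GRCh38.p14 and were located by their own match in GRCh37. Each lies on the plus strand, and capitals mark the CG pairs, the sites that can be methylated.

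SNRPN chr15:25199884-25200183: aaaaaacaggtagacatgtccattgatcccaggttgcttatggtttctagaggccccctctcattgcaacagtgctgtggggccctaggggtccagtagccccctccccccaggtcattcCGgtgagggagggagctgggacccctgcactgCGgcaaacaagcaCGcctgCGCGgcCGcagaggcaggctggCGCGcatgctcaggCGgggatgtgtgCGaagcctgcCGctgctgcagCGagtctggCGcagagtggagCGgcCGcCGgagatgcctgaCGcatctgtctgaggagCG
MEST chr7:130131676-130131975: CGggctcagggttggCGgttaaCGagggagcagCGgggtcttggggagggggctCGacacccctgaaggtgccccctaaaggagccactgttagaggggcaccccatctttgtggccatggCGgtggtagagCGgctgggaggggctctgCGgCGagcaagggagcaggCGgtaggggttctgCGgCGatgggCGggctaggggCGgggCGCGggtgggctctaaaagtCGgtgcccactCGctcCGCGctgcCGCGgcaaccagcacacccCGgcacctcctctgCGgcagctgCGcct

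The SNRPN promoter holds 18 CG pairs and the MEST promoter 25, against a median of 14 over 35116 promoters. More CG pairs were counted in 42.9% and 30.1% of all promoters, respectively. Entries were found for 4 of the 10 members (H19, MEG3, MEST and SNRPN), 13 starts in all. The single H19 entry, chr11:2022447-2022746, is not the start of the canonical transcript and holds 6 CG pairs.

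MEST, a member of the alpha/beta hydrolase family expressed from the paternal copy in mesoderm and fat, lies at chr7:130126012-130146306. Its mean was 0.198 TPM in si-NC against 73.8 TPM in si-FTO, a 372-fold difference and a log2 ratio of 5.96. CPA4, a carboxypeptidase gene of the same domain, had 0.0156 TPM and 128 TPM, a log2 ratio of 6.99. COPG2, a coat protein gene that meets MEST tail to tail, had 58.0 TPM and 29.1 TPM, a log2 ratio of -0.97, just short of the threshold. KLF14, a transcription factor gene, had 0.753 TPM and 0.0142 TPM, a 53.1-fold lower level in si-FTO whose log2 ratio is held to -0.79 by the 1 TPM added. MESTIT1, an antisense RNA at MEST, was listed at 0 in si-NC and had 0.266 TPM in si-FTO. Here genes of 1 domain lay on both sides of 0. Of the 4 that passed the filter, 2 were called higher and 0 lower, against 11.4% and 17.0% of all genes. Those 2, MEST and CPA4, passed only through si-FTO. Within 1 Mb of MEST, 3 of 18 other genes compared were called higher and 2 lower, against the same shares of all genes. Those called higher include CPA4, already counted with the domain.

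PEG10, a paternally expressed gene derived from a retrotransposon and needed for the placenta, lies at chr7:94285637-94299007. It had 0.262 TPM in si-NC against 24.9 TPM in si-FTO, a 95.0-fold difference and a log2 ratio of 4.36. SGCE, a sarcoglycan gene that starts back to back with PEG10, was already at 18.4 TPM in si-NC and had 46.0 TPM in si-FTO (log2 ratio 1.28). TFPI2, a protease inhibitor gene, had 1.09 TPM and 14.4 TPM, a log2 ratio of 2.88. PPP1R9A and CASD1 had log2 ratios of 0.66 and 0.60, and CALCR was under the filter. In this domain 3 of the 5 genes that passed the filter were called higher and 0 lower, against 11.4% and 17.0% of all genes. PEG10, one of the 3, passed only through si-FTO. Within 1 Mb of PEG10 the count was 5 higher and 0 lower of 13 other genes, against the same shares of all genes. Those 5 include SGCE and TFPI2, already counted with the domain.

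The remaining members were at or near 0 in both groups. MEG3, a maternally expressed noncoding RNA on chromosome 14, had 0.0126 TPM in si-NC against 0.00874 TPM in si-FTO. DLK1, its paternally expressed neighbour and a membrane protein with EGF-like repeats, was listed at 0 in both, as were RTL1, MEG8 and MEG9. DIO3 was under the filter at 0.166 TPM and 0.333 TPM, and BEGAIN, at the edge of the domain, had 1.98 TPM and 3.10 TPM. PEG3, a zinc finger gene on chromosome 19, had 0.00391 TPM in si-NC and was listed at 0 in si-FTO. ZIM2, ZIM3, USP29 and MIMT1 of its domain were listed at 0 in both groups, and ZNF264 had 5.04 TPM and 4.01 TPM. Around PEG3, 0 of 48 other genes compared within 1 Mb were called higher and 23 lower, with a median log2 ratio of -0.88. Around MEG3 and DLK1 the count was 3 higher and 1 lower of 17, with a median log2 ratio of 0.17. Over all genes, 11.4% were called higher and 17.0% lower.

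Over the 7 domains, 39 of 41 listed genes other than the members had a row. Of these, 19 passed the filter, and 10 were called higher and 0 lower, against 11.4% and 17.0% of all genes. The median log2 ratio was 1.28 against -0.20 over all genes. With 0.1 TPM added in place of 1, KLF14 was called lower. The filter acts here as it does on the members, since 14 of the 19 were over 0.5 TPM in both groups and 4 only in si-FTO. With 0.5 TPM asked for in both groups, a setting added after the data were seen, 7 of those 14 were called higher and 0 lower. That setting left 1464 of all genes higher and 1836 lower, and the shares of 11.4% and 17.0% do not apply to it. The list was described by its counts, and whether it stands apart from other genes was not tested.

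Imprinted genes elsewhere in the genome were called in both directions, as were genes in general. Of 40 such genes, some are imprinted only in certain tissues or have only provisional evidence. The filter was passed by 32, of which 5 passed only through si-FTO and 6 only through si-NC. With 0.5 TPM asked for in both groups, a setting added after the data were seen, 2 of 21 were called higher and 5 lower. That setting left 1464 of all genes higher and 1836 lower. With the filter as set, 7 of the 32 were called higher and 9 lower, and the median log2 ratio was 0.18. Over all genes 11.4% were called higher and 17.0% lower. GNAS, which encodes the stimulatory G protein alpha subunit, had 1009 TPM in si-NC against 411 TPM in si-FTO (log2 ratio -1.29). GRB10, an adaptor that dampens insulin and IGF receptor signalling, had 49.6 TPM and 10.9 TPM, a log2 ratio of -2.09. DLX5, a homeobox gene, had 14.01 TPM in si-NC and was listed at 0 in si-FTO. ZNF202, a zinc finger gene, had 19.9 TPM and 8.02 TPM, a log2 ratio of -1.21.

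Higher in si-FTO were SLC22A3, an organic cation transporter, at 0.0131 TPM and 43.2 TPM (log2 ratio 5.45), and AXL, a receptor tyrosine kinase, at 0.151 TPM and 27.5 TPM (log2 ratio 4.63). SVOPL had 0.116 TPM and 12.8 TPM, and TRAPPC9, a vesicle trafficking subunit, had 7.67 TPM and 20.6 TPM. SLC22A3, AXL and SVOPL were under 0.5 TPM in si-NC and passed the filter only through si-FTO, so they had to differ. IGF2R, the receptor that clears IGF2, had 42.2 TPM and 62.9 TPM, a log2 ratio of 0.57.

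**Figure D4:**
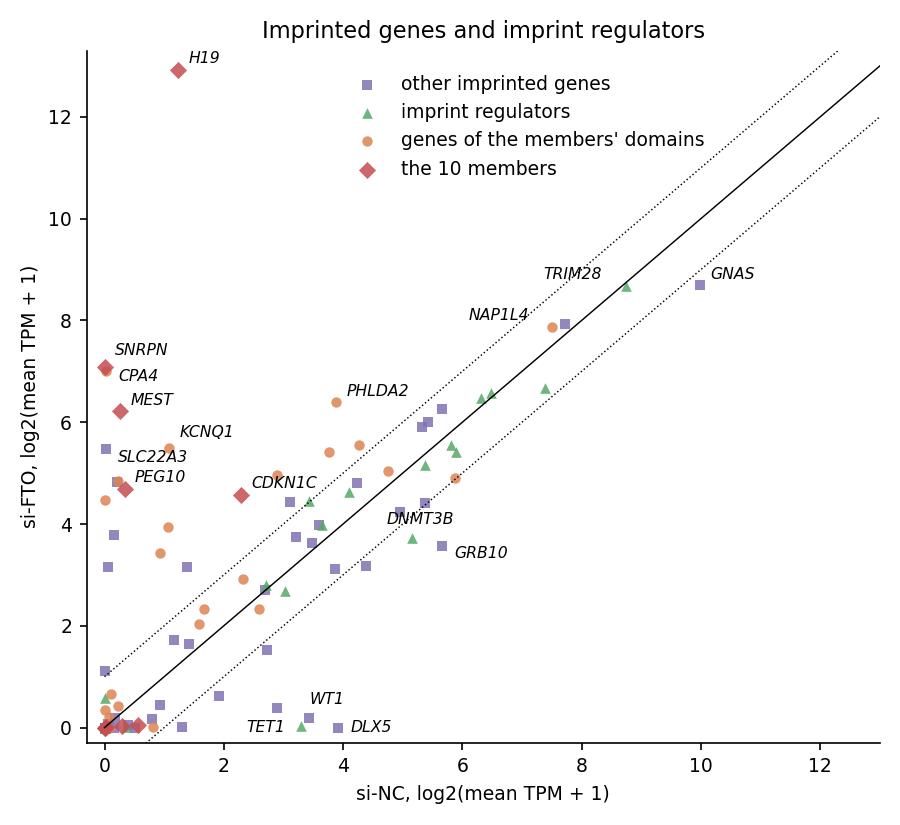
Scatter of the mean TPM in si-FTO (vertical) and si-NC (horizontal), as log2(mean TPM + 1), for the 10 members, the other genes of their domains, imprinted genes elsewhere and regulators of imprints. The solid line marks equal levels and the dotted lines a log2 ratio of 1 in either direction. H19 lies farthest above the line, and imprinted genes elsewhere lie on both sides of it.

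Regulators of imprints were listed as genes that set, keep, read or remove DNA methylation or act at imprinted loci. Of 21 listed, 14 passed the filter, 1 was called higher and 2 lower, with a median log2 ratio of -0.13. These shares are near those of all genes, 11.4% higher and 17.0% lower. TRIM28, the corepressor that holds methylation at control regions, was the most abundant in both groups, with 430 TPM in si-NC against 411 TPM in si-FTO. DNMT3B, a de novo methyltransferase, had 34.5 TPM and 12.1 TPM, a log2 ratio of -1.43, whereas DNMT3A had 9.77 TPM and 20.9 TPM, a log2 ratio of 1.02. Also called lower was TET1, which oxidises methylcytosine, with 8.80 TPM and 0.0257 TPM. It passed the filter only through si-NC and was chosen after its values were seen. CTCF itself and DNMT1, the maintenance methyltransferase, both likewise chosen, had log2 ratios of -0.48 and -0.70. ZFP57, a zinc finger protein that recruits TRIM28 to imprints, was listed at 0 in both.

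The genes whose log2 ratio was nearest to that of H19 were A2M, ALPI, S100A6, ALPP and TM4SF1, among genes with at least 10 TPM in at least 1 group. Likeness is the difference in log2 ratio over 2 group means. A2M, a protease inhibitor, was the single gene with a larger log2 ratio than H19, at 11.71, and TM4SF1, a membrane protein, was the most distant of the 5, at 9.13. ALPI and ALPP are closely related alkaline phosphatases, and reads could have been split between them. By the same measure WDR41, WDR35, DMAC2, LARP1 and ZNF576 were nearest to IGF2 (log2 ratio -0.51). Both IGF2 means are below the 1 TPM added, which holds its ratio near 0.

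Markers of cell types were compared in the same way, because the groups differed in them as well. The labels give a gastric line, but of 18 gastric epithelial markers TFF1, GKN1 and VIL1 were listed at 0 in both groups, KRT19 had at most 0.130 TPM, and EPCAM had 1.22 TPM in si-NC against 0.113 TPM in si-FTO. Of the 10 that passed the filter, 4 were called higher and 4 lower, against 11.4% and 17.0% of all genes. Of those called, ELF3 passed only through si-FTO, and GATA4 and SOX2 only through si-NC. The summed level of the list was 141 TPM in si-NC against 5119 TPM in si-FTO. The most abundant were KRT18 in si-NC, at 52.1 TPM against 1851 TPM in si-FTO, and KRT8 in si-FTO, at 3139 TPM against 10.8 TPM in si-NC. These 2 keratins pair in simple epithelia and made up most of the sum in si-FTO. The other 16 genes summed to 77.8 TPM and 129.1 TPM. ELF3 and MUC1 were higher in si-FTO, with log2 ratios of 6.40 and 3.57. GATA4, GATA6 and SOX2, transcription factors of endoderm and stomach, were lower, and GATA4 went from 36.96 TPM to a listed 0. CDH1, the epithelial adhesion protein E-cadherin, was also lower, with 3.67 TPM and 0.685 TPM, a log2 ratio of -1.47.

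The other marker lists are given against the same shares of all genes, 11.4% called higher and 17.0% lower. Of the genes called in them, FAP, PDGFRB, HNF4A and CDH5 passed the filter only through si-FTO. COL3A1, PDGFRA and GPC3 passed only through si-NC. Fibroblast markers summed to 23.6 TPM in si-NC against 57.3 TPM in si-FTO, with 3 of 8 compared called higher and 2 lower. COL1A1 was the most abundant of them in both groups (10.3 TPM and 36.4 TPM). Trophoblast markers, relevant because placenta is rich in H19, summed to 31.2 TPM and 24.0 TPM, with 2 of 3 compared called higher and 1 lower. GATA3 was the most abundant in si-NC, at 22.4 TPM against 0.890 TPM in si-FTO, and was the gene called lower. TFAP2C was the most abundant in si-FTO, at 18.1 TPM against 7.72 TPM in si-NC. CGA had 0.674 TPM in si-NC against 4.39 TPM in si-FTO. TFAP2C and CGA were thus higher in si-FTO, while the sum of the list was lower. CGB8, PSG3, CSH1 and PAGE4 were listed at 0 in both groups. Fetal liver and yolk sac markers summed to 33.2 TPM and 1.17 TPM, with 1 of 2 compared called higher and 1 lower. GPC3 had 32.8 TPM in si-NC and was listed at 0 in si-FTO, where HNF4A led at 1.09 TPM, and AFP and ALB were under 0.1 TPM in both. Immune and endothelial markers, listed together with the haemoglobin genes HBA1 and HBB, summed to 12.1 TPM and 52.2 TPM. Of 6 compared, 2 were called higher and 1 lower. HBA1 led in si-NC at 6.21 TPM, and PTPRC was listed at 0 in both. CDH5 led in si-FTO at 40.9 TPM, most of the sum there, against 0.00827 TPM in si-NC. VWF, also an endothelial marker, had at most 0.0537 TPM. The part of these marker differences in the levels of the imprinted genes was not tested. Whether both groups hold the same cells apart from FTO was not tested either, so the siRNA and any other difference between the groups cannot be told apart here.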

How the data were processed

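RNA was measured in 3 si-NC and 3 si-FTO libraries of AGS cells. According to the methods, the authors mapped reads to hg19 with Bowtie and quantified genes with RSEM, while the submitters' processing notes name HISAT2 and hg19; versions are not given in the sources used here. The deposited values are TPM, as 1 mean per group, and 0 columns hold single libraries. The authors' comparison columns (a log2 fold change, p-value and q-value) and their table of changed genes were not used. A value of 0.0001 TPM was read as 0. The log2 ratio used a pseudocount of 1 TPM, a filter of at least 0.5 TPM in at least 1 group and a threshold of 1, and no test was run. Symbols matched 55726 of 58174 identifiers. Coordinates come from GRCh37 with the lifted GENCODE annotation, and promoter and microRNA sequences from RefSeq tables.

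The members and lists were chosen with earlier results of these data known, and the lists were written from general knowledge. The genes named are the members, FTO, domain genes of at least 0.5 TPM, other imprinted genes past 2-fold with at least 10 TPM, and, of the other lists, the most abundant gene per group and those past 2-fold with at least 10 TPM. For H19 and IGF2, the 5 genes nearest in log2 ratio and the 3 nearest on each side were added. Other genes, including those given as listed at 0 or near it, were chosen after their values were seen. Alternatives were another pseudocount, filter, threshold, scaling and reading of 0.0001. Python 3.11.15, numpy 2.4.6, pandas 2.3.3 and matplotlib 3.10.9 were used, and the calculation was tested on simulated data.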

Additional observations from a re-analysis of the deposited data

How the results depend on the processing

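The 5 members called higher were also 5 with a pseudocount of 0.1 TPM, no filter, a minimum of 5 TPM, median-ratio scaling, quantile normalization, 0.0001 kept with no pseudocount, and a threshold of 2 on the log2 ratio. PEG10, MEST and SNRPN were under 0.5 TPM in si-NC and passed the filter only through si-FTO, so their place in this count supports nothing. In each of these settings 0 were called lower. Except with no filter, this leaves out the members with low means in both groups, and with no filter the 1 TPM added holds their ratios near 0. Of these, KCNQ1OT1 had a log2 ratio of -1.37 with a pseudocount of 0.1 TPM and -3.10 with none, and PEG3 had -5.29 with none. With 0.5 TPM asked for in both groups, chosen after seeing the data, 2 members were higher, other imprinted genes were 2 higher and 5 lower, and all genes 1464 higher and 1836 lower, since fewer genes were compared. FTO stayed between -2.19 and -1.88 in log2 ratio.

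With a pseudocount of 0.1 TPM, the log2 ratio was 12.4 for H19 and -2.09 for IGF2, and 1 domain gene, KLF14, was lower. With 0.0001 kept and no pseudocount, it was 12.5 and -3.79, 1 domain gene was lower, and 3400 of all genes were higher and 5348 lower. With a pseudocount of 0.1 TPM, 3280 of all genes were higher and 5147 lower. IGF2 moves with the pseudocount because both its means are under it. A minimum of 5 TPM left 1730 of all genes higher and 2254 lower. A log2 ratio of at least 2 left 4 other imprinted genes higher and 4 lower, and 976 of all genes higher and 1241 lower. The split of all genes, 2340 higher and 3492 lower, became 2702 and 2979 with median-ratio scaling, which removed an offset of -0.18 in log2 ratio and so raised the ratios, and 2803 and 2902 with quantile normalization.

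No paired analysis was possible because the table holds 1 mean per group, while replicate numbers 1 to 3 stand only in the sample labels. Leaving out each library and the replicate block were not run for the same reason. The unknown depth and spread between libraries limit every value given.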

Other observations

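A list of 15 genes held IGF1, the receptors and binding proteins of IGFs, the proteins that bind IGF2 mRNA, and LIN28A and LIN28B of the let-7 pathway. Of these, 13 passed the filter, 5 were called higher and 5 lower, and 3 were not past 2-fold. Over all genes 11.4% were called higher and 17.0% lower. The median log2 ratio of the list was 0.57 against -0.20 over all genes. The binding proteins, which hold IGFs in the extracellular space, were called in both directions. IGFBP1, IGFBP3, IGFBP4 and IGFBP6 were called higher, and IGFBP2 and IGFBP5 lower. For IGFBP1 and IGFBP6 the log2 ratios were 1.78 and 2.12. IGFBP1 and IGFBP3 were under 0.5 TPM in si-NC, and IGFBP5 was under it in si-FTO. IGFBP3 had 0.353 TPM in si-NC against 133 TPM in si-FTO (log2 ratio 6.62), and IGFBP4, highest of these genes in si-FTO, had 6.20 TPM and 147 TPM, a log2 ratio of 4.36. IGFBP2 had 94.0 TPM and 19.1 TPM, a log2 ratio of -2.24, and IGFBP5 had 23.9 TPM and 0.175 TPM, a log2 ratio of -4.41. IGF1R, the receptor through which IGF2 signals growth, had 25.3 TPM and 60.0 TPM, a log2 ratio of 1.22.

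The fetal RNA-binding proteins of the same list were lower in si-FTO or below the threshold. LIN28B, which blocks the processing of let-7 microRNAs, had 41.2 TPM in si-NC against 0.00563 TPM in si-FTO (log2 ratio -5.39). It passed the filter only through si-NC. IGF2BP1, highest of these genes in si-NC, had 99.4 TPM and 10.4 TPM, a log2 ratio of -3.13, and IGF2BP2 had 75.0 TPM and 24.4 TPM, a log2 ratio of -1.58. IGF2BP3 had a log2 ratio of -0.31. H19 is known to bind let-7, but let-7 levels were not analysed here.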
